A study of Homo sapiens with 3 samples.

Results

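The regions described here are the peaks of Spindlin1 and C11orf84 in the DNA next to centromeres. Spindlin1 binds histone H3 whose tail carries methyl marks, and C11orf84 is one of its binding partners. Human centromeres are built of long arrays of alpha satellite, a short repeat copied head to tail, and the DNA at their sides mixes satellite pieces with recent duplications of other parts of the genome. The hg19 assembly writes the arrays as gaps of unknown sequence and holds few copies of repeats that the genome has in large numbers. A read from any copy can then only be placed on the few copies present. Such stretches are known for very high read numbers in any library, with or without an antibody.

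The data are chromatin immunoprecipitation sequencing (ChIP-seq) peak lists from U2OS, an established human osteosarcoma cell line, grown without treatment. There was 1 library with an antibody against Spindlin1, 1 library with an antibody against C11orf84 and 1 Input library made without antibody, of which no file was used here. A region was taken as lying beside a centromere gap when its summit, the position of its highest signal, lay within 1 Mb outside the 3 Mb gap of chromosomes 1 to 12 or 16 to 20. These 17 chromosomes have 34 such flanks, 1 on the short-arm side and 1 on the long-arm side of each gap. The flanks held 2091 peaks of Spindlin1, out of 153468, and 1982 peaks of C11orf84, out of 177639, together 4073 of 331107. The rest of the genome, against which they were set, was all other peaks on chromosomes 1 to 22 and X, 151287 for Spindlin1 and 175575 for C11orf84. Shares and ranks given for a whole list leave out chromosome Y and are over 153378 peaks for Spindlin1 and 177557 for C11orf84. Each antibody has 1 library, so nothing can be tested between the proteins or between regions. The intervals given are exact 95% intervals for counting error. They treat peaks as independent draws, which neighbours are not, and are probably too narrow. Total read numbers are unknown.

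With empty flanks counted, the flanks were about as dense in Spindlin1 peaks as the rest of the genome, and less dense in C11orf84 peaks. For Spindlin1 they held 61.5 peaks per Mb (58.9 to 64.2), against 57.4 per Mb in the rest of the genome, a ratio of 1.07. For C11orf84 they held 58.3 per Mb (55.8 to 60.9), against 66.6 per Mb, a ratio of 0.875. The rest was counted over 2634 Mb, without stretches of 1 Mb or more that held no peak, while empty flanks were counted. Without those the ratios were 1.21 and 0.991. Beside the gaps Spindlin1 had 1.05 times as many peaks as C11orf84, whereas in the rest of the genome it had 0.862 times as many. Put as a share, 51.3% of the peaks beside the gaps were Spindlin1 peaks (49.8 to 52.9), against 46.3% elsewhere (46.1 to 46.5). The Spindlin1 density ratio was 0.967 without chromosome 12, which held the most members. Other chromosomes were not left out in turn, so the excess is not shown to rest on chromosome 12 in particular. The C11orf84 ratio without its fullest chromosome, chromosome 8 for that list, was 0.790.

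Peaks were spread very unevenly over the flanks. The fullest were the short-arm side of chromosome 12 (199 peaks for Spindlin1 and 157 for C11orf84), the long-arm side of chromosome 8 (192 and 217) and the long-arm side of chromosome 2 (186 and 192). For Spindlin1 the long-arm sides of chromosomes 10 (143 and 120) and 7 (134 and 108) came next, and for C11orf84 the long-arm side of chromosome 17, with 128 against 84 for Spindlin1. In each list the 6 fullest of the 34 flanks held close to the same part of the members, 46.3% of the Spindlin1 and 46.5% of the C11orf84 ones. At the other end, the short-arm side of chromosome 6 held 4 peaks of each list and that of chromosome 19 held 13 of each. Relative to the rest of its own chromosome, the long-arm side of chromosome 8 was denser by 3.61 times for Spindlin1 and 4.01 times for C11orf84. The short-arm side of chromosome 12 was denser by 3.52 and 2.42 times, and the short-arm side of chromosome 4, a chromosome poor in peaks, by 3.46 and 2.94 times. Altogether 12 flanks were denser than the rest of their chromosome for Spindlin1 and 9 for C11orf84. Several flanks with peaks were far below the rest of their chromosome. The short-arm side of chromosome 19 had 0.101 and 0.0752 times its own density, and the short-arm side of chromosome 6 had 0.117 and 0.0957 times. The long-arm side of chromosome 11 had 0.211 and 0.151 times.

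**Figure D1:**
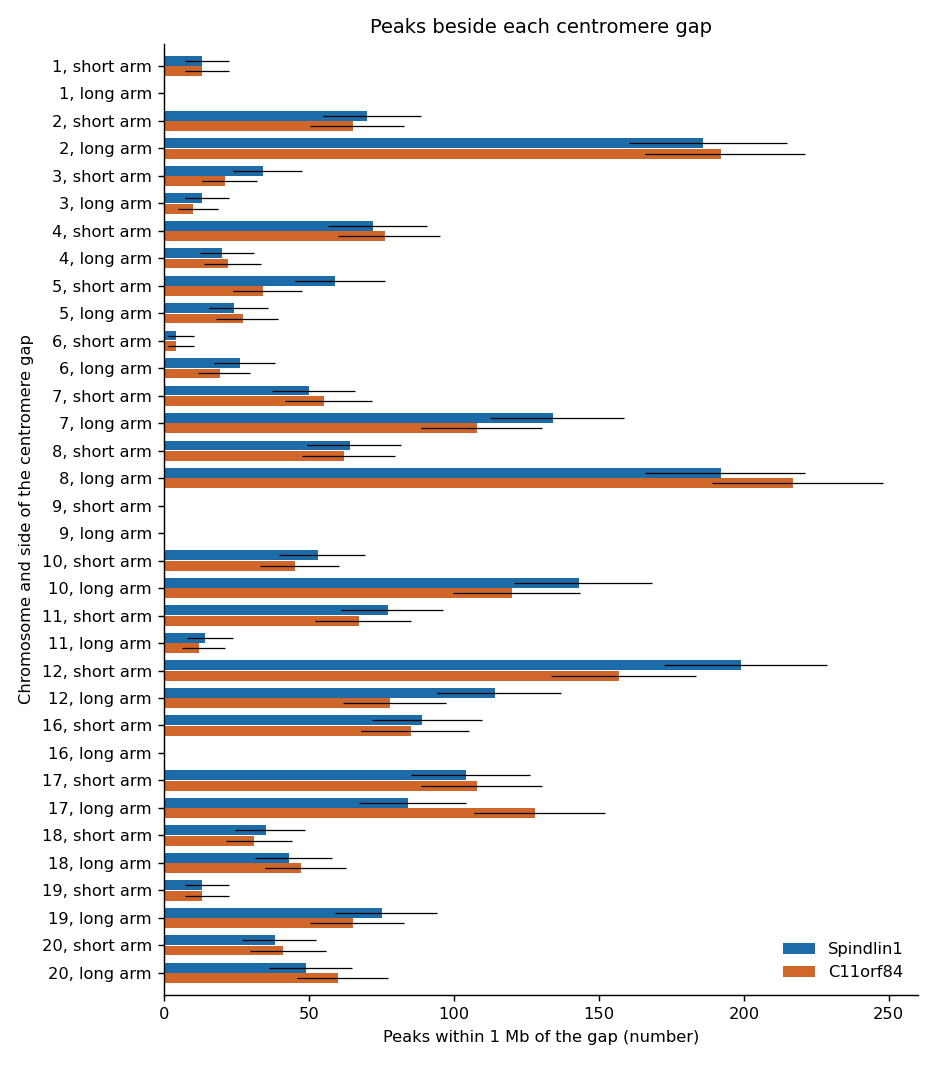
Number of Spindlin1 peaks (blue) and C11orf84 peaks (orange) with a summit within 1 Mb of the gap, for each side of the 17 centromere gaps, with exact Poisson 95% intervals for counting error as black lines. The 6 fullest flanks hold 46.3% and 46.5% of the peaks, with up to 199 for Spindlin1 and 217 for C11orf84 in 1 flank, and 4 flanks hold none.

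Flanks full in one list were full in the other, with Pearson's r at 0.954 and Spearman's rho at 0.973 over the 30 flanks that held peaks. Both lists share the mappability and the copy number of each flank, so this describes the lists and is not a test of the proteins. There were more Spindlin1 than C11orf84 peaks in 16 flanks, fewer in 11 and equal numbers in 3. The largest excess of Spindlin1 peaks was on both sides of the chromosome 12 gap, 42 peaks on the short-arm side and 36 on the long-arm side (114 against 78), followed by the long-arm side of chromosome 7 (26) and the short-arm side of chromosome 5 (25, from 59 against 34). The long-arm side of chromosome 17 went the other way, as given above.

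Peaks of both lists were at 0 in 4 flanks, the long-arm sides of chromosomes 1 and 16 and both sides of chromosome 9. The long arms of these 3 chromosomes are known for large blocks of satellite heterochromatin beside the centromere. Around their gaps the stretch without a summit of either list ran for 21.1 Mb on chromosome 1, 21.5 Mb on chromosome 9 and 11.1 Mb on chromosome 16. On the other 14 chromosomes it was hardly longer than the 3 Mb gap itself, from 3.0 to 3.24 Mb. On 16 of the 17 chromosomes it was the longest stretch without a summit on the chromosome, the exception being chromosome 18. A peak lay within 100 kb of the gap in 27 flanks for Spindlin1 and 26 for C11orf84. The closest of all was on the short-arm side of chromosome 4, where a Spindlin1 summit lay 395 bp and a C11orf84 summit 380 bp from the rounded gap edge. That Spindlin1 peak, chr4:49659462-49659785, had a fold of 4.31 and overlapped its C11orf84 counterpart, whose summit was 15 bp away. Where the lists stop at an assembly gap, absence of the protein and absence of sequence to place reads on cannot be told apart.

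The authors' fold enrichment of a peak is its summit depth relative to a local background. Both were recovered here as numbers of fragments from the deposited fold and p-value, by an inferred formula that every peak met. The floor is the lowest background of a list, 0.949 fragments in that of Spindlin1 and 1.04 in that of C11orf84. Background is called raised from 2 times the floor and high from 10 times the floor. Since the fold divides depth by background, it falls as background rises, and it ranks peaks within their own list only. The backgrounds of the 2 lists may not be separate measurements. Overlapping pairs with high background in both lists had a median ratio of Spindlin1 to C11orf84 background, in multiples of the floor, of 1.05. It was the same beside the gaps and in the rest of the genome. Whether both lists took their background from 1 control was not tested.

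Peaks with a raised background were more frequent beside the gaps than elsewhere. Of the Spindlin1 peaks beside the gaps, 467 (22.3%, 20.6 to 24.2) had a raised background, against 8.89% in the rest of the genome and 9.07% in the whole list. Of the C11orf84 peaks, 467 (23.6%, 21.7 to 25.5) did, against 9.03% in the rest and 9.19% in the whole list. Fewer of them stood at the floor, 39.6% and 39.5%, against 48.3% and 49.4% in the rest of the genome (48.2% and 49.3% of the whole lists). The share of raised peaks was above that of the rest in 22 of the 30 flanks for Spindlin1 and in 24 for C11orf84. It ran from 0% on the short-arm side of chromosome 19 in both lists to 82.9% on the short-arm side of chromosome 2 for Spindlin1 and 84.6% on the short-arm sides of chromosomes 1 and 2 for C11orf84. On the long-arm side of chromosome 10, 60.8% of the peaks of each list were raised. The 4 flanks with the most raised peaks held 48.8% of those of Spindlin1 and 45.6% of those of C11orf84. The long-arm side of chromosome 8, with the most C11orf84 peaks, had nearly none, 2.60% and 2.30%.

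High background was still more concentrated. Among the 116 Spindlin1 peaks of the genome with high background, 76 (65.5%, 56.1 to 74.1) lay beside a gap. For C11orf84 it was 66 of 93 (71.0%, 60.6 to 79.9). These are not 2 independent results if the lists' backgrounds have a common source. In the whole lists 0.0756% and 0.0524% of peaks passed this limit, and the flanks make up 1.27% of the 2634 Mb and 34 Mb compared. The long-arm side of chromosome 10 held 25 of them for Spindlin1 and 21 for C11orf84, the short-arm side of chromosome 2 held 11 and 9, and the long-arm sides of chromosomes 19 (9 and 8) and 18 (7 and 6) followed. Without chromosome 10 the shares were 56.7% and 62.5%. All but 1 of the 76 Spindlin1 peaks and all 66 C11orf84 peaks overlapped a peak of the other list. High-background peaks in the rest of the genome did so nearly as often, 38 of 40 for Spindlin1 and 26 of 27 for C11orf84. A limit of 5 times the floor gave 26.1% and 32.5% beside gaps.

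**Figure D2:**
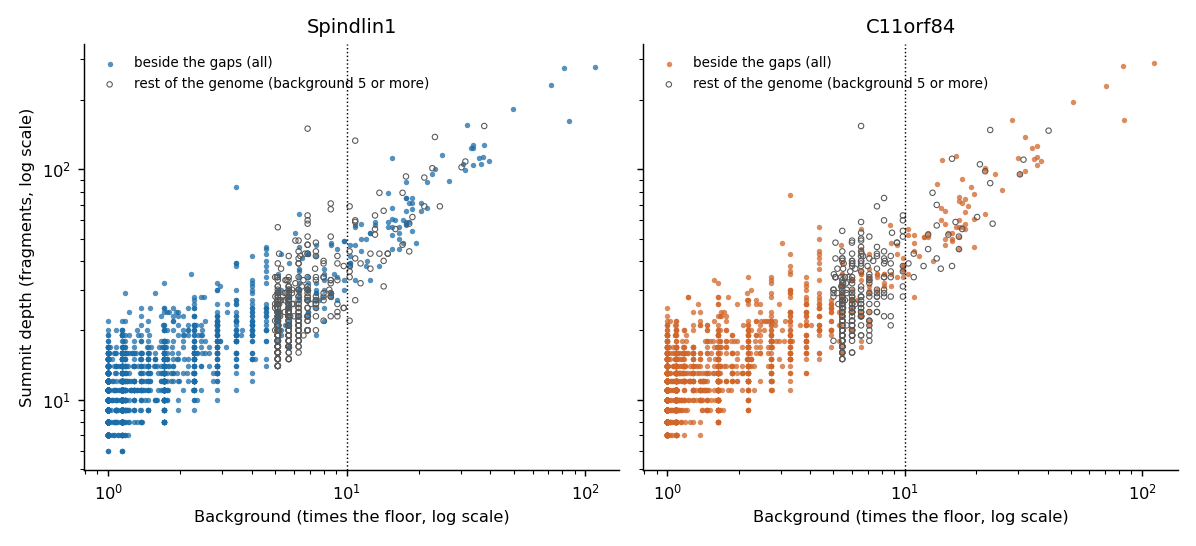
Summit depth in fragments against background in multiples of the floor, both on log axes, for Spindlin1 (left) and C11orf84 (right); filled points are all peaks beside gaps, open circles the peaks of the rest of the genome from 5 times the floor upwards, and the dotted line marks 10 times. Depth climbs with background, as it must where every listed peak stands above its background. The highest backgrounds, up to 110 and 112 times the floor, all belong to peaks beside gaps.

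The 5 deepest peaks of the Spindlin1 list and the 5 deepest of the C11orf84 list were the same 5 regions, and all lay beside a gap. Of the 10 deepest, 6 Spindlin1 and 7 C11orf84 peaks did, and of the 20 deepest 15 in each list. The deepest was chr1:121484114-121485459 on the short-arm side of chromosome 1, 55.1 kb from the gap, with 279 fragments at its Spindlin1 summit and 288 at its C11orf84 summit. Its background was 110 and 112 times the floor, so that its folds were 2.67 and 2.46. On the short-arm side of chromosome 6, chr6:58776147-58779343 reached 274 and 281 fragments. These 5 regions were chosen after their values were seen.

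On the long-arm side of chromosome 7, chr7:61968784-61969662 had 233 and 229 fragments, 919 kb from the gap. On the long-arm side of chromosome 19, chr19:27731874-27732425 had 183 and 196. The fifth, chr10:42384981-42385848, had 162 and 164 fragments over a background of 85 and 84 times the floor. Its folds of 2.0 and 1.87 were the lowest of the whole lists. Whether copies missing from the assembly set this depth was not tested, since no Input file and no repeat annotation of the build were used.

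Peaks of high fold also lay beside gaps, at lower background. The region chr20:26189792-26190381, on the short-arm side of chromosome 20, had rank 3 in the whole Spindlin1 list with a fold of 20.01, and its C11orf84 counterpart had rank 2 in that list with 17.8. Its summits held 84 and 77 fragments over a background of 3.42 and 3.27 times the floor, and lay 7 bp apart. The next Spindlin1 peak, chr17:21319743-21320355, had a fold of 14.2 and rank 23. It belongs to a group on the short-arm side of chromosome 17, between 935 and 947 kb from the gap, that gave 2 of the 10 Spindlin1 members of highest fold and 4 of the 10 C11orf84 ones. Of those, chr17:21322794-21323639 and chr17:21324374-21325871 tied for C11orf84, with a fold of 12.8 and rank 171. On the short-arm side of chromosome 4, chr4:49149097-49149954 had 12.05 for Spindlin1 and 12.9 for its counterpart. On the short-arm side of chromosome 18, chr18:14943567-14943805 had a Spindlin1 fold of 11.8 at a background equal to the floor, and its C11orf84 counterpart had 8.84. Every one of these 10 Spindlin1 and 10 C11orf84 members was shared, that is, it overlapped the other list by 1 bp or more. Among all members with a −log10 q of at least 10, 94.1% of Spindlin1 and 91.6% of C11orf84 peaks were shared. The share for peaks of such strength in the rest of the genome is not given here, so these values do not set the members apart.

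Across all members the fold was a little lower than in the rest of the genome. Its median was 5.39 for Spindlin1, against 5.75, and 5.40 for C11orf84, against 5.89. It was below that of the rest in 26 of the 30 flanks in each list. Without raised peaks the members' medians were 5.64 and 5.56, but the medians of the rest above include raised peaks. Among peaks at the floor, members had 5.64 against 6.16 in the rest for Spindlin1, and 5.40 against 5.89 for C11orf84. Members were also lower between the floor and 2 times the floor in both lists. At 10 times or more they were higher, 3.69 against 3.47 and 3.35 against 3.28. Summit depth did not follow the fold. The median was 12 fragments beside the gaps and 11 in the rest for Spindlin1, and 12 in both for C11orf84. Members were slightly wider, with a median of 264 bp against 229 bp for Spindlin1 and 276 bp against 248 bp for C11orf84.

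Raised background was most frequent close to the gap. Within 200 kb of a gap 38.3% of Spindlin1 peaks (34.4 to 42.3) were raised, and from 200 kb to 1 Mb 15.7% (13.9 to 17.7). For C11orf84 the values were 42.1% (37.8 to 46.6) and 17.2% (15.3 to 19.3). Of the high-background peaks, 62 of 76 Spindlin1 and 55 of 66 C11orf84 ones lay within 200 kb. The fall was not even. At 500 to 600 kb 33.7% and 30.8% were raised. The short-arm side of chromosome 4 held 37 of the 169 Spindlin1 and 41 of the 169 C11orf84 peaks of that interval, raised or not. Spindlin1 peaks there on the short-arm side of chromosome 2 included groups of 9, 6 and 5, with median backgrounds of 2.94, 5.14 and 1.91 times the floor. How the raised peaks of the interval divide over the flanks is not given here. Beyond 1 Mb the raised share in the next 4 intervals of 1 Mb was 12.1%, 13.1%, 9.85% and 11.3% for Spindlin1, and high-background peaks numbered 3, 5, 0 and 0.

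Peak density went up and down over the same distance. In the first 100 kb there were 107 Spindlin1 and 85.9 C11orf84 peaks per Mb, and at 200 to 300 kb 39.4 of each. At 300 to 400 kb density was 87.6 and 76.8 per Mb, where chromosome 12 gave 108 of the 298 Spindlin1 and 89 of the 261 C11orf84 peaks. At the 1 Mb limit itself, the last 20 kb inside held 44 Spindlin1 and 38 C11orf84 peaks, with median folds of 5.64 and 5.74, and the first 20 kb outside held 26 and 33, with median folds of 5.59 and 6.01.

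**Figure D3:**
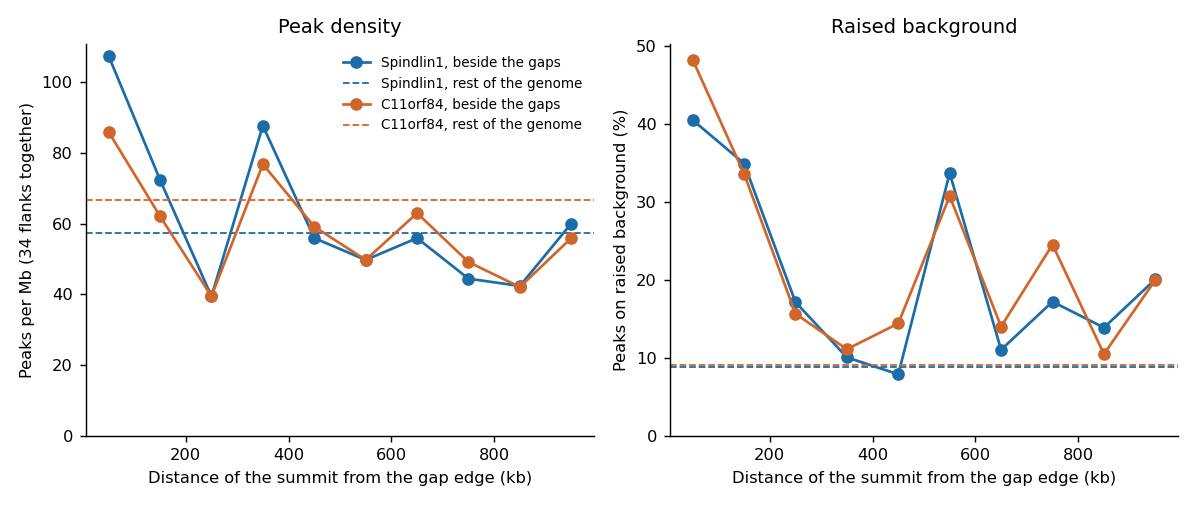
Peaks per Mb over the 34 flanks together (left) and the percentage of peaks on raised background (right) in intervals of 100 kb from the gap edge, for Spindlin1 (blue) and C11orf84 (orange), with dashed lines for the rest of the genome. The raised share is 40.5% and 48.3% in the first 100 kb and lies near the dashed lines at 300 to 400 kb, with another maximum of 33.7% and 30.8% at 500 to 600 kb.

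The 2 proteins' lists overlapped to about the same extent in both directions beside the gaps. Of the Spindlin1 members 1301 (62.2%, 60.1 to 64.3) overlapped a C11orf84 peak by at least 1 bp, against 69.8% in the rest of the genome and 69.7% of the whole list. Of the C11orf84 members 1225 (61.8%, 59.6 to 64.0) overlapped a Spindlin1 peak, against 57.6% in the rest and in the whole list. Spindlin1 sharing was below that of the rest in 21 of the 30 flanks, whereas C11orf84 sharing was below it in 16 and above it in 14. The lowest Spindlin1 shares were 21.4% on the long-arm side of chromosome 11, 23.1% on the short-arm side of chromosome 19, 23.5% on the short-arm side of chromosome 3, 26.9% on the long-arm side of chromosome 6 and 27.1% on the short-arm side of chromosome 5. The short-arm side of chromosome 2, where most peaks were raised, had the highest Spindlin1 share, 87.1%, and a C11orf84 share of 90.8%, which was exceeded where all 4 C11orf84 peaks on the short-arm side of chromosome 6 were shared.

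Sharing differed with background in opposite ways. Among members at the floor, 51.9% of Spindlin1 peaks (48.4 to 55.3) were shared, against 68.2% in the rest of the genome, and 47.9% of C11orf84 peaks (44.3 to 51.5), against 53.5%. Among raised members 85.4% and 84.6% were shared, against 78.9% and 68.3% in the rest. Raised members stood more often at 5 times the floor or more, where sharing was higher among members and in the rest. From 2 to 5 times the floor it was 80.3% (75.3 to 84.6) against 78.6% for Spindlin1, and 79.4% (74.6 to 83.6) against 68.1% for C11orf84. The Spindlin1 share at the floor was also lower in each of 4 steps of depth. Of the shallowest floor peaks, with 6 to 8 fragments, 33.3% of the Spindlin1 members were shared, against 54.1% in the rest. At 9 and 10 fragments it was 42.7% against 61.3%, at 11 and 12 fragments 63.4% against 70.5%, and at 13 or more 79.0% against 84.2%. For C11orf84 the same 4 steps gave 33.3% against 34.5%, 36.4% against 42.8%, 48.3% against 52.8% and 74.7% against 73.1%, with the deepest step higher beside the gaps.

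**Figure D4:**
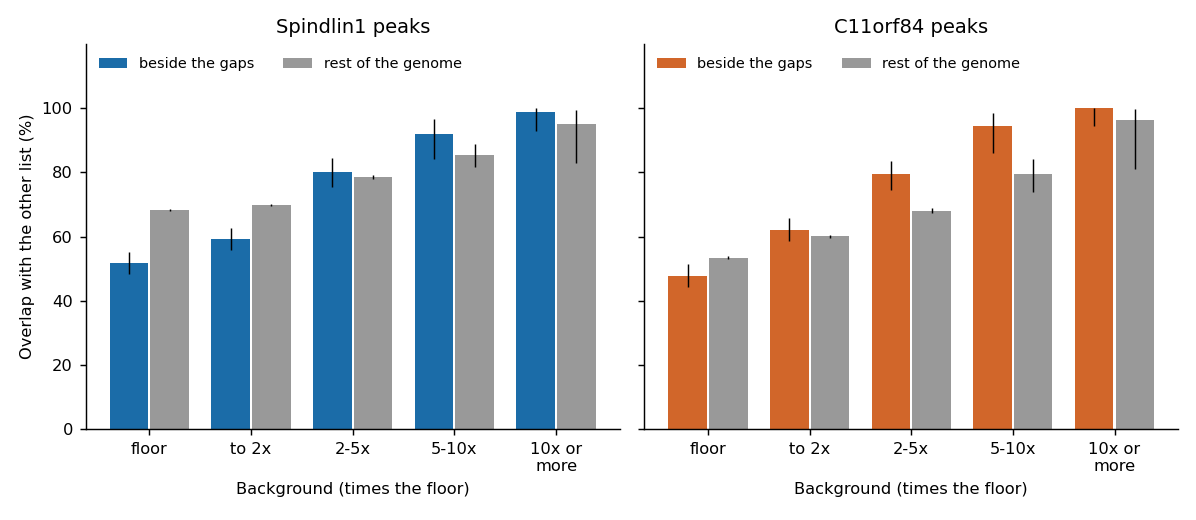
Percentage of Spindlin1 peaks (left) and C11orf84 peaks (right) that overlap the other list, by background in multiples of the floor, for peaks beside gaps (coloured) and in the rest of the genome (grey), with exact 95% intervals for counting error as black lines. Sharing beside gaps is lowest at the floor, 51.9% and 47.9%, and reaches 98.7% and 100% at 10 times the floor or more.

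Where peaks of both lists overlapped, their summits agreed closely. The 1158 pairs beside gaps had a median distance of 44 bp between summits, against 53 bp in 95919 pairs elsewhere. Their summit depths, set against each other, gave 0.974 for Pearson's r and 0.773 for Spearman's rho, against 0.656 and 0.531 in the rest of the genome. Among pairs at the floor in both lists they were 0.364 and 0.338 beside gaps (305 pairs), against 0.381 and 0.324 elsewhere (38115 pairs). These values describe pairs that can share their local read depth. In the 63 pairs with high background in both lists, 46 summits lay within 10 bp of each other, and the Spindlin1 depth was 1.02 times the C11orf84 depth at the median. The lowest ratio, 0.362, was a chromosome 10 pair of 50 and 138 fragments, whose summits lay 594 bp apart. The C11orf84 interval there covered several Spindlin1 peaks, and the one whose summit was 0 bp from its own, chr10:42529175-42529711, had 123 fragments.

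**Figure D5:**
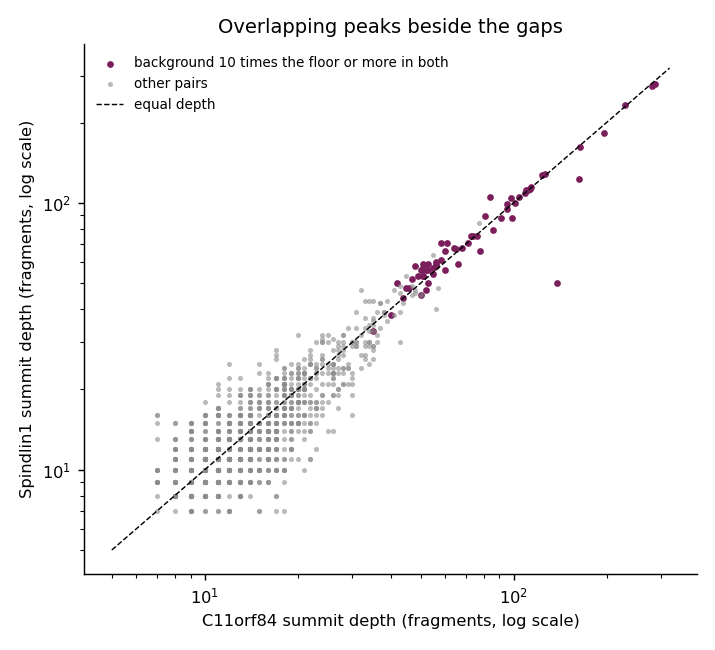
Summit depth of the Spindlin1 peak against that of the overlapping C11orf84 peak, in fragments on log axes, for the 1158 pairs beside gaps; purple points have high background (10 times the floor or more) in both lists, grey points are the other pairs, and the dashed line marks equal depth. The 63 purple pairs lie along the line up to 279 and 288 fragments, apart from 1 pair at 50 and 138.

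A run is here at least 5 peaks of 1 list with neighbouring summits at most 5 kb apart. C11orf84 peaks beside gaps lay in runs as often as the whole list, and Spindlin1 peaks somewhat more often. There were 100 Spindlin1 runs with 1342 members (64.2%; 57.8% of the whole list lay in runs) and 93 C11orf84 runs with 1230 members (62.1%; 62.1% of the whole list). The largest lay on the short-arm side of chromosome 12, at chr12:34441111-34559772, with 130 Spindlin1 peaks of which 121 were shared. The matching C11orf84 run held 110 peaks, of which 94 were shared. Its background was low, with medians of 1.14 and 1.09 times the floor, and the runs ranked 30 and 46 by size in their lists. A run on the long-arm side of chromosome 2, chr2:95931042-95998048, had 70 and 68 peaks at similarly low background. The run at chr10:42354987-42421438, with 61 and 48 peaks, was of another kind, with a median background of 4.57 and 5.11 times the floor and a median depth of 28 and 27 fragments. On chromosome 17 the peaks of high fold named above belonged to chr17:21268044-21328944, a run of 61 and 55 peaks.

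Some runs held Spindlin1 peaks without a single overlap. Of the 100 Spindlin1 runs beside gaps 7 had 0 shared peaks (7%, 2.86 to 13.9), against 9 of 6141 runs in the rest of the genome (0.147%, 0.0670 to 0.278). For C11orf84 it was 2 of 93 (2.15%, 0.262 to 7.55), against 118 of 7396 (1.60%, 1.32 to 1.91). The 7 Spindlin1 runs held 51 peaks. With summits at most 2 kb apart 1 such run of 7 in the whole list was beside a gap, and at most 10 kb apart 5 of 23, so the count rests on how runs are drawn. The largest was chr12:38081748-38104180 on the long-arm side of chromosome 12, with 15 peaks, a median of 10 fragments at the summit and 2 C11orf84 peaks lying between them. The median depths of the 7 runs ran from 8 to 10 fragments, except for 14 at chr7:61885436-61891408, against a median of 12 over all Spindlin1 members.

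Runs of both lists also lay beside or among each other without overlap. On the long-arm side of chromosome 7, chr7:62016374-62033334 held 8 Spindlin1 peaks and chr7:62015143-62024254 held 5 C11orf84 peaks, with none in common. On the long-arm side of chromosome 19, a run of 5 Spindlin1 peaks at chr19:27839824-27845867 and one of 7 C11orf84 peaks at chr19:27845004-27858091 also shared none. Peaks far from the other protein were slightly more frequent among Spindlin1 members than in the whole list, and less frequent among C11orf84 members. Of the Spindlin1 members 207 (9.90%; 8.36% of the whole list) had no C11orf84 peak within 5 kb, and of the C11orf84 members 142 (7.16%; 10.9% of the whole list) had no Spindlin1 peak that near. The highest Spindlin1 fold among them was 7.70, at chr12:38334736-38335014 on the long-arm side and at chr20:25528708-25528913 on the short-arm side, each with 14 fragments at floor background. For C11orf84 it was 8.92, at chr3:93707697-93707931 on the long-arm side of chromosome 3, with 24 fragments.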

How the data were processed

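Peaks of Spindlin1 and C11orf84 ChIP-seq in U2OS cells were used, 1 library each. Per the labels' protocols, cells were fixed with 1% formaldehyde for 10 min, glycine at 0.125 M stopped fixation for 5 min, and libraries followed Illumina protocols. Per the submitters' processing notes, Bowtie 1.2.2 and build hg19 were used. How peaks were called, with which threshold and control, and how reads with several placements were handled is not given in the sources used here. The authors' lists give start, end and summit coordinates, printed here counting from 1. The deposited fold is the authors' ratio of the summit to a local background. The authors also deposited p-values and q-values, each as −log10. The deposited score equalled 10 times −log10 q, cut to its whole part (100% of peaks), and was left aside. These values are the authors' own.

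Summit depth k and background λ were recovered from 2 relations, fold = (k + 1)/(λ + 1) and a p-value equal to the Poisson chance of exceeding k fragments. The largest error in −log10 p was 0.000174 for Spindlin1 and 0.000148 for C11orf84. A background within 0.1% of the lowest counted as at the floor. The 3 Mb gaps were those of the rule, with edges rounded to 10 kb. The rest of the genome was chromosomes 1 to 22 and X without stretches of 1 Mb or more that hold no peak. Shares carry Clopper-Pearson and numbers Poisson 95% intervals. Tested on simulated data, the recovery returned 100% of 19976 depths, and all of 5000 overlaps and 1700 memberships came out as planted. The simulated folds and p-values were made with the same 2 relations. The test thus checks the computation, not whether the relations hold for the authors' lists. Scripts ran in Python 3.11.15 with pandas 2.3.3, SciPy 1.17.1 and NumPy 2.4.6, and plots were drawn with matplotlib 3.10.9.

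The members, limits and lists were chosen with earlier results of these data known. Regions named are, per list, the 10 members of highest fold, the closest member and the one of highest fold of a flank, and runs; the deepest regions, those of high background and those far from the other list were picked after their values were seen. Alternatives were other flank widths, membership by any base, a stricter −log10 q of at least 10, other overlap rules, raised peaks left out, and a chromosome left out. No genome or annotation of hg19 was used here, so peaks have no gene names or sequence, and their repeat content is not analysed here.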

Additional observations from a re-analysis of the deposited data

Results flagged for a closer look

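Peaks were also found inside the 3 Mb taken as gaps, which the comparisons above left out. There were 4 Spindlin1 peaks there, on chromosomes 5, 7 and 17, and 4 C11orf84 peaks, on chromosomes 3, 5 and 17. All lay close to an edge, at most 4129 bp inside for Spindlin1 and 4089 bp for C11orf84, and the edges are rounded to 10 kb. The one on chromosome 5, chr5:49405717-49406049, had 62 Spindlin1 and 51 C11orf84 fragments over a background of 18.8 and 16.9 times the floor. On chromosome 17, chr17:22261428-22261758 had 79 and 59 fragments over 17.1 and 16.4 times the floor. There is no control list to set them against.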

How the results depend on the processing

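Of 100 alternative values, 35 stayed close to the value reported and 65 moved. Numbers of peaks or runs counted as close within 1.5 times, and other values inside the interval of the value reported. No paired analysis was possible because each antibody has a single library. The gap edges from runs of unknown bases and the sequence of the peaks were not run, since no hg19 genome was used here. In each pair below the first value is for Spindlin1 and the second for C11orf84, and the cause of a shift was not tested unless the alternative's own construction gives it.

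With flanks of 500 kb there were 1233 and 1099 members, a density ratio of 1.26 and 0.970, 24.5% and 26.5% raised, a median fold of 5.18 and 5.19 and 15.1% and 17.4% in the fullest flank; 60.1% of Spindlin1 members were shared. With 2 Mb there were 3890 and 3972 members, 17.6% and 18.4% raised, a median fold of 5.64 and 5.63 and 13.8% and 12.7% in the fullest flank; the Spindlin1 density ratio was 0.998 and its shared part 66.0%. At a −log10 q of at least 10 there were 322 and 344 members, a density ratio of 1.41 and 0.968, 94.1% and 91.6% shared, 49.1% and 41.3% raised, a median fold of 8.0 and 7.85 and 15.2% and 15.7% in the fullest flank. Without raised peaks there were 1624 and 1515 members, a density ratio of 0.913 and 0.735, 55.5% and 54.8% shared, a median fold of 5.64 and 5.56 and 11.5% and 13.99% in the fullest flank. Without the chromosome with most members (12 and 8) the density ratio was 0.967 and 0.790, 24.4% and 26.7% were raised, and 10.8% and 11.3% lay in the fullest flank. Counting peaks within 1 kb as 1 gave a density ratio of 0.959 and 0.799.

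Sharing by at least 50% of both intervals was 41.6% and 43.8%, and by summits at most 200 bp apart 48.7% and 51.3%. Raised as 3 times the floor gave 13.2% and 14.03%. The remaining alternatives were chosen after seeing the data. Leaving out flanks without a peak gave a density ratio of 1.21 and 0.991. High background as 5 times the floor put 26.1% and 32.5% of such peaks beside gaps, and as 20 times 75.8% and 70.0%. Runs with summits at most 2 kb apart held 42.1% and 43.9% of members and at most 10 kb apart 75.2% and 73.9%. Runs without a shared peak numbered 1 and 0 at 2 kb, and 5 and 1 at 10 kb, against 7 and 2. The Spindlin1 density ratio fell on either side of 1 with these choices, while that of C11orf84 was below 1 under each alternative run here. The C11orf84 interval included 1 without empty flanks (0.948 to 1.04), with flanks of 500 kb (0.914 to 1.03) and at a −log10 q of at least 10 (0.868 to 1.08).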
